A study of Mus musculus with 9 samples.

Results

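NRF2, encoded by Nfe2l2, is the transcription factor that turns on the antioxidant and detoxification enzymes of the cell. Its partner KEAP1 holds it in the cytoplasm and hands it to a ubiquitin ligase, and electrophiles or oxidants that modify KEAP1 release NRF2, which then binds antioxidant response elements together with small MAF proteins. p62, encoded by Sqstm1, is an autophagy receptor that can trap KEAP1 and is itself made from an NRF2 target gene. In macrophages the same enzymes are drawn on during activation, and reactive oxygen species are known to take part in the signal by which RANKL turns such cells into osteoclasts.

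The 10 genes described here, 10 of the 23282 gene rows of each library, were chosen by symbol with earlier results of these data known. They were the regulators Nfe2l2, Keap1 and Sqstm1, the glutathione supply genes Slc7a11, Gclc and Gclm, the haem and quinone enzymes Hmox1 and Nqo1, and the thioredoxin system genes Txnrd1 and Srxn1. Their mRNA was measured in RAW264.7 cells, a single mouse macrophage line of BALB/c origin, at passage 30. The 3 libraries of RANKL alone, the negative control, came from cells given RANKL at 50 ng/mL. The 3 libraries of surface proteins came from cells given the same RANKL dose and 10 µg/mL of proteins stripped from the bacterium Propionibacterium freudenreichii MJ2, and the 3 libraries of heat-killed MJ2 from cells given the whole killed bacterium at 10000000 cells/mL. All treatments lasted 4 days. The labels do not state for each heat-killed MJ2 library that RANKL was given too, and nothing in the sources says that replicates were separate cultures, so that p-values measure the spread between these libraries, which may be technical.

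Values are levels on the log2 scale as deposited, that is log2(adjusted reads + 1), where adjusted reads are read numbers after the scaling of the authors, and folds are on this scale, which understates the change of genes with few reads. The total per library lay between 5930926 and 6503682 adjusted reads. The threshold was an adjusted p below 0.05 in limma (Benjamini-Hochberg, over all genes tested) together with a 2-fold difference, in comparisons of 3 libraries against 3. All 8 macrophage markers examined reached 10 adjusted reads in every group, and 7 of 8 osteoclast markers did so as well. The macrophage markers summed to 19140 to 20450 adjusted reads with RANKL alone, 25050 to 26140 with heat-killed MJ2 and 21110 to 22580 with surface proteins, with Adgre1, Itgam, Lyz2 and Cd14 above all RANKL alone libraries in both treatments, Csf1r and Spi1 below them in both and, with surface proteins, Ptprc above and Cd68 below them. The summed level of the osteoclast markers was 20560 to 32510 adjusted reads with RANKL alone, 13710 to 15860 with heat-killed MJ2 and 5239 to 7840 with surface proteins. Calcr, the calcitonin receptor, was the marker below 10 reads in every group. Both marker lists thus moved with the groups, their part in the differences below was not tested, and in bulk RNA fewer cells of a type cannot be told apart from less RNA per cell. In 3 libraries, RANKL alone replicate 2, heat-killed MJ2 replicate 1 and surface proteins replicate 3, the deposited values hold fractions of a read and 7779 rows at 0 each, against 10075 to 10875 rows at 0 in the other 6, and counts are given below with and without these 3.

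Promoter sequence was available for 8 of the 10 genes, as 250 bases before and 50 after each annotated start, from RefSeq on GRCm38.p6. Both strands were searched for TGACNNNGC, the core of the antioxidant response element, TGANTCA, the AP-1 site, and TGATGNAA, an element bound by ATF4. The 8 genes have 10 promoters in the table, 3 of them for Txnrd1. The antioxidant response element core was found in 4 of the 10, each of another gene, and in 12.4% of all 32851 promoters. The AP-1 site was found in 1 of the 10 and in 7.81% of all promoters, and the ATF4 element in 1 of the 10 and in 3.97%. The windows that held a match upstream of a start are printed below because they show which of the 3 elements stood before which gene. Each is written 5′ to 3′ on the strand of its gene, in lower case with the match in capitals.
Slc7a11: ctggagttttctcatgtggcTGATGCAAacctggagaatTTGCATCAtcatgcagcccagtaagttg
Gclm: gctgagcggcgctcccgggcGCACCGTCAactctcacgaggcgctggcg
Txnrd1: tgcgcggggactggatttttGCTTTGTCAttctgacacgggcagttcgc
Nfe2l2: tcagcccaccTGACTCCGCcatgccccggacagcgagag
Srxn1, far: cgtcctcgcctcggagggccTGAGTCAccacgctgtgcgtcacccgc
Srxn1, near: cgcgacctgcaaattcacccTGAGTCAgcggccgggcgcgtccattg

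The Slc7a11 window, chr3:50443633-50443699 on the minus strand and outside any annotated gene, held ATF4 elements at -66 to -59 and, on the other strand, at -47 to -40 from the start. The Gclm window, chr3:122245403-122245451 on the plus strand and also between genes, held an antioxidant response element core on the other strand at -134 to -126. For Txnrd1 the core stood at -92 to -84 on the other strand before the second of 3 annotated starts, at chr10:82859094-82859142 on the plus strand, inside the gene and outside its exons. In Nfe2l2 it stood at -240 to -232, at chr2:75704875-75704913 on the minus strand, a stretch that is also an exon of E030042O20Rik. The Srxn1 windows, chr2:152105402-152105448 and chr2:152105459-152105505 on the plus strand between genes, each held an AP-1 site, at -102 to -96 and at -45 to -39. In the near window the site was followed by GC, and this longer form, TGANTCAGC, a search added after the match had been seen, stood in 1.19% of all promoters. Srxn1 was the fourth gene with a core, at 28 to 36 bases past its start, which is not printed. Keap1, Sqstm1 and Nqo1 held none of the 3 motifs in this window.

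**Figure D1:**
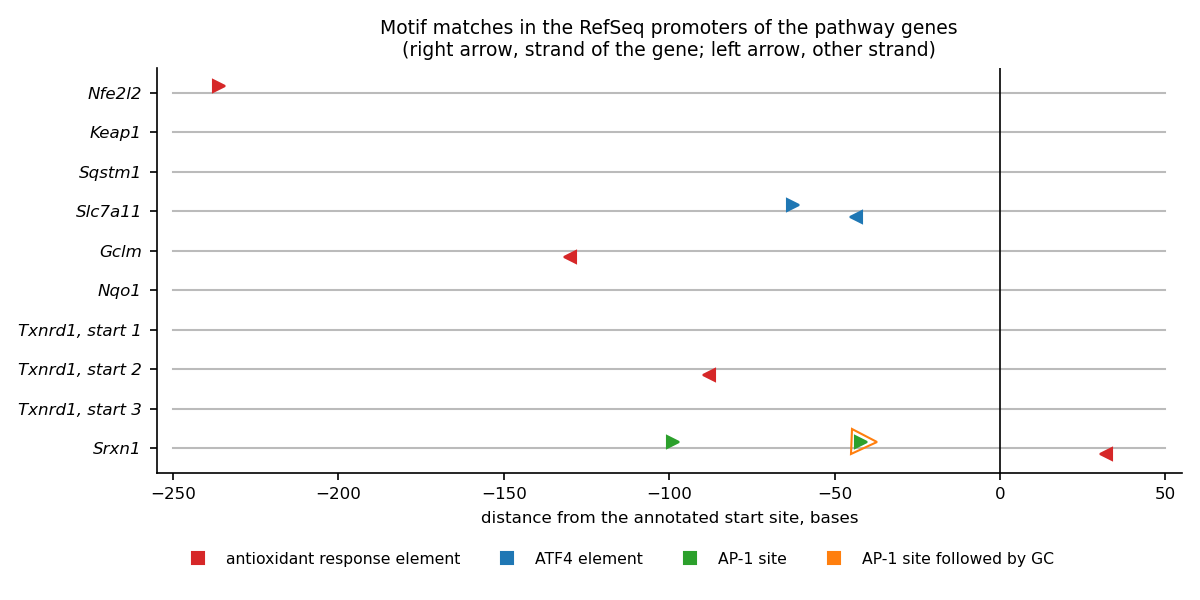
Motif matches by distance from the annotated start site (x axis, bases) in the 10 promoters of 8 pathway genes (rows, 3 starts for Txnrd1). Right arrows are matches on the strand of the gene and left arrows on the other strand; Slc7a11 has 2 ATF4 elements facing each other, and Srxn1 has 2 AP-1 sites before its start.

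With surface proteins, 5 of the 9 genes that could be tested were higher than with RANKL alone, and none was lower. Slc7a11, the cystine importer, was 44.5-fold higher, Sqstm1 6.03-fold, Hmox1, the haem-degrading enzyme, 4.48-fold, Gclm 3.28-fold and Srxn1 2.74-fold. Over all 10874 genes tested in this comparison 17.5% passed the threshold, 10.2% as higher and 7.32% as lower. With heat-killed MJ2, 3 of the 9 were higher than with RANKL alone, Slc7a11 18.2-fold, Gclm 2.46-fold and Srxn1 2.43-fold, where 4.26% of 10814 genes passed, 3.37% as higher and 0.897% as lower. Between surface proteins and heat-killed MJ2, Sqstm1 was 2.86-fold and Slc7a11 2.45-fold higher with surface proteins, where 10.1% of 10916 genes passed, 5.08% as higher and 4.97% as lower. The tenth gene, Nqo1, had too few reads to be tested.

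The median log2 difference of the 9 genes was 1.46 for surface proteins against RANKL alone, where the median of all genes tested was -0.0077. It was 1.08 for heat-killed MJ2 against RANKL alone (-0.0042 for all genes) and 0.35 for surface proteins against heat-killed MJ2 (0.03 for all genes). Both comparisons with RANKL alone share its 3 libraries. In the first, all libraries of one group lay above all of the other for 6 genes and below for 1, where 48.4% of all genes did not overlap, 24.7% above and 23.7% below. In the second it was 6 above and 0 below (30.2% of all genes, 15.4% above and 14.7% below), and in the third 5 above and 1 below (42.3%, 22.2% above and 20.1% below). An unadjusted p under 0.05 in limma was reached by 7 of the 9 genes in the first comparison, 6 in the second and 4 in the third, where 42.3%, 22.6% and 35.3% of all genes tested reached it.

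**Figure D2:**
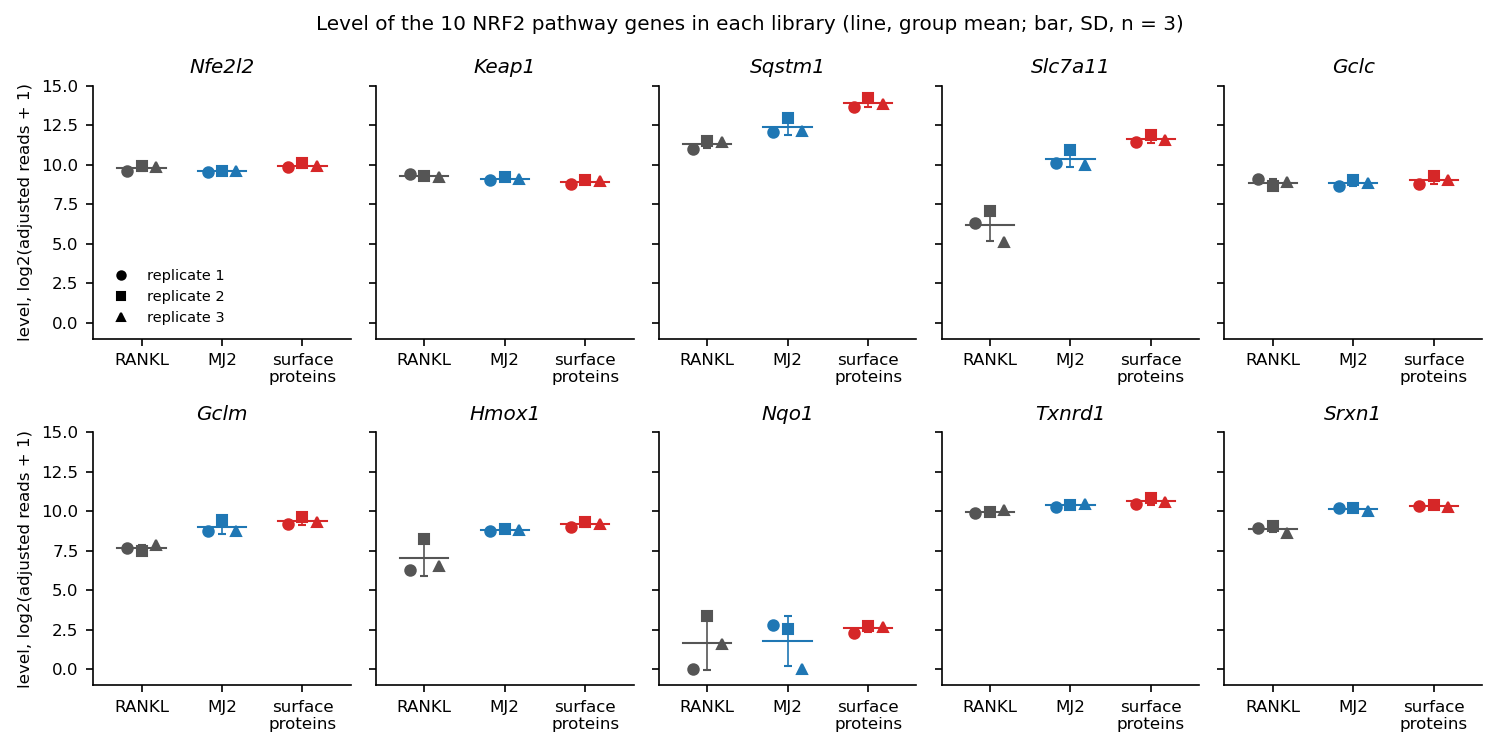
Level of each of the 10 genes, log2(adjusted reads + 1), in each library (y axis) by group (x axis), with symbols for replicates, a line for the group mean and a bar for the SD of 3 libraries. Slc7a11 and Sqstm1 step up from RANKL alone to heat-killed MJ2 to surface proteins, the group means of Nfe2l2, Keap1 and Gclc lie at most 0.37 apart, and Nqo1 lies near the floor in every library.

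The transcript of NRF2 itself passed the test in no comparison. Nfe2l2 (chr2:75675513-75704641, minus strand) measured 9.61, 9.96 and 9.86 in RANKL alone replicates 1 to 3, 9.58, 9.60 and 9.64 with heat-killed MJ2, and 9.84, 10.12 and 9.92 with surface proteins. The surface protein libraries overlapped those of RANKL alone and all lay above those of heat-killed MJ2. The log2 difference was 0.15 ± 0.16 (SE) for surface proteins against RANKL alone, with a 95% interval of -0.24 to 0.54 and an adjusted p of 0.52 in limma. Against heat-killed MJ2 it was 0.35 ± 0.13 with an adjusted p of 0.12, and for heat-killed MJ2 against RANKL alone -0.20 ± 0.14 with an adjusted p of 0.45. The interval of the first comparison reached up to a 1.45-fold level and left out a 2-fold one.

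Keap1 (chr9:21229730-21239361, minus strand), which encodes the inhibitor of NRF2, had its lowest values with surface proteins, without passing the test. Its level was 9.40, 9.29 and 9.25 with RANKL alone, 9.03, 9.26 and 9.10 with heat-killed MJ2 and 8.81, 9.02 and 9.00 with surface proteins. The 3 surface protein libraries were the lowest 3 of the 9, the highest of them just below the lowest heat-killed MJ2 library. The log2 difference of surface proteins against RANKL alone was -0.37 ± 0.14 (adjusted p = 0.090, limma), and 28.3% of all genes tested had a lower one. Keap1 overlaps the antisense gene Gm16754 at its 3′ end, and whether reads were counted by strand is not given in the sources used here.

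Within a library, the level of Nfe2l2 minus that of Keap1 was 0.22, 0.67 and 0.60 with RANKL alone, 0.55, 0.34 and 0.54 with heat-killed MJ2, and 1.04, 1.10 and 0.92 with surface proteins. All surface protein libraries lay above the other 6. An exact two-sided permutation test of 3 libraries against 3 cannot give a p below 0.1, and this value was obtained for surface proteins against either group (0.16 after adjustment over 21 such tests of 7 gene pairs). This limit holds for every within-library difference given below.

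Sqstm1 (chr11:50199366-50210827, minus strand), the gene of p62, had the highest level of the 10 genes in all 9 libraries, and with reads from the 3′ end a level does not scale with transcript length. With RANKL alone it measured 11.03, 11.54 and 11.43, with heat-killed MJ2 12.10, 12.99 and 12.13, and with surface proteins 13.69, 14.24 and 13.85. The 3 groups did not overlap, in the order RANKL alone, heat-killed MJ2, surface proteins. In reads the group means were 2607, 5679 and 15768 adjusted reads. The log2 difference was 2.59 ± 0.22 for surface proteins against RANKL alone (95% interval 2.07 to 3.12, adjusted p = 9.4e-04, limma) and 1.52 ± 0.29 against heat-killed MJ2 (adjusted p = 0.022). For heat-killed MJ2 against RANKL alone it was 1.08 ± 0.29 and did not pass (adjusted p = 0.090), although the libraries did not overlap. The 3′ end of Sqstm1 overlaps Mrnip on the other strand, listed in the files as 3010026O09Rik at log2 levels of 3.29 to 5.98, far below those of Sqstm1 in all 9 libraries.

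Nbr1, a related autophagy receptor, gave a reference for Sqstm1 within each library. Sqstm1 minus Nbr1 was 2.16, 2.56 and 2.27 with RANKL alone, 3.40, 4.25 and 3.97 with heat-killed MJ2 and 4.53, 5.24 and 4.82 with surface proteins. The 3 groups again did not overlap (exact permutation p = 0.1 in each comparison, 0.16 adjusted). Nbr1 itself differed by 0.06 between surface proteins and RANKL alone (adjusted p = 0.79, limma). With heat-killed MJ2 it lay below all libraries of both other groups, with log2 differences of -0.47 from RANKL alone (adjusted p = 0.23) and 0.53 for surface proteins against it (adjusted p = 0.11). The difference of Sqstm1 minus Nbr1 between heat-killed MJ2 and RANKL alone, 1.55, thus holds the lower Nbr1 as well as the 1.08 of Sqstm1.

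Slc7a11 (chr3:49892526-50443614, minus strand) encodes the transport chain of the cystine-glutamate exchanger, which brings in cystine for glutathione. Its level was 6.30, 7.09 and 5.11 with RANKL alone, 10.11, 10.94 and 10.01 with heat-killed MJ2 and 11.43, 11.90 and 11.60 with surface proteins. No groups overlapped, and RANKL alone spread most, with an SD of 0.99 against 0.51 and 0.24 in the treated groups. The log2 difference was 5.48 ± 0.49 for surface proteins against RANKL alone (95% interval 4.30 to 6.65, adjusted p = 0.0011) and 4.19 ± 0.53 for heat-killed MJ2 (adjusted p = 0.012). Of all genes tested, 99.6% had a lower difference in the first comparison and 99.4% in the second. Surface proteins exceeded heat-killed MJ2 by 1.29 ± 0.28 (adjusted p = 0.030).

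The exchanger needs a heavy chain, Slc3a2, which also serves other amino acid transporters. Slc3a2 was higher than with RANKL alone in both treatments, by 2.61 with surface proteins (adjusted p = 0.0012, limma) and by 1.33 with heat-killed MJ2 (adjusted p = 0.047). Slc7a11 minus Slc3a2 was -3.52, -3.48 and -4.82 with RANKL alone, -1.01, -0.90 and -1.35 with heat-killed MJ2, and -1.23, -1.03 and -0.97 with surface proteins. Both treatments lay above every RANKL alone library and overlapped each other, with means of -1.09 ± 0.23 and -1.08 ± 0.13 (SD, n = 3) that differed by 0.009 (exact permutation p = 1). Slc3a2 itself was 1.28 higher with surface proteins than with heat-killed MJ2 (adjusted p = 0.018, limma).

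**Figure D3:**
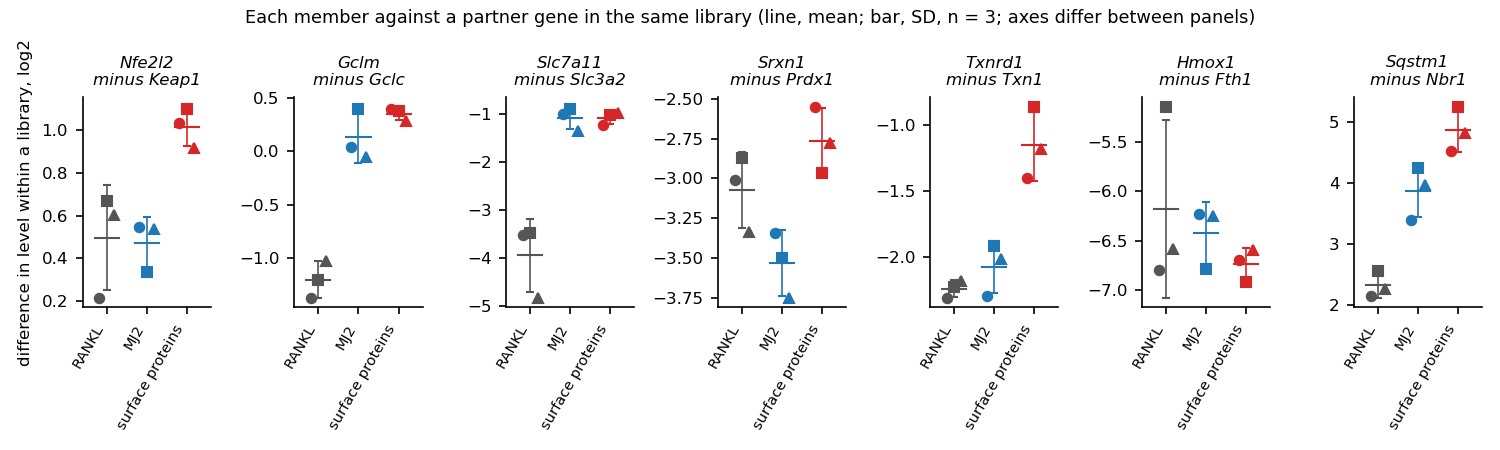
Log2 level of a pathway gene minus that of a partner gene in the same library (y axis, 1 scale per panel) by group, with the mean and the SD of 3 libraries. Slc7a11 minus Slc3a2 and Gclm minus Gclc sit apart from RANKL alone and close together in the 2 treatments, whereas Txnrd1 minus Txn1 and Nfe2l2 minus Keap1 sit apart with surface proteins.

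Glutathione synthesis starts with glutamate-cysteine ligase, made of a catalytic subunit (Gclc) and a modifier subunit (Gclm). Gclc (chr9:77754535-77794485, plus strand) measured 9.08, 8.67 and 8.90 with RANKL alone, 8.69, 9.03 and 8.84 with heat-killed MJ2 and 8.82, 9.27 and 9.04 with surface proteins. All 3 groups overlapped. Its log2 difference was 0.16 ± 0.19 for surface proteins against RANKL alone (95% interval -0.29 to 0.61, adjusted p = 0.55, limma) and -0.03 ± 0.17 for heat-killed MJ2 (-0.44 to 0.38, adjusted p = 0.94).

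Gclm (chr3:122245557-122270732, plus strand) measured 7.71, 7.47 and 7.87 with RANKL alone, 8.73, 9.43 and 8.79 with heat-killed MJ2 and 9.22, 9.65 and 9.32 with surface proteins. Both treated groups lay above every RANKL alone library, and they overlapped each other. The log2 difference was 1.71 ± 0.19 for surface proteins (adjusted p = 0.0021, limma) and 1.30 ± 0.23 for heat-killed MJ2 (adjusted p = 0.032), and 0.41 ± 0.24 between them (adjusted p = 0.27). The call for heat-killed MJ2 was lost without any one of the 6 libraries (log2 difference 1.08 to 1.43, adjusted p 0.061 to 0.087), without the 3 fractional libraries (adjusted p = 0.17), without the filter on low values (0.069) and with the replicate number as a block (0.10). Gclm minus Gclc was negative with RANKL alone, at -1.37, -1.21 and -1.03, near 0 with heat-killed MJ2, at 0.04, 0.40 and -0.05, and positive with surface proteins, at 0.40, 0.38 and 0.28. Neither treated group overlapped RANKL alone in this difference (exact permutation p = 0.1 for each, 0.16 adjusted), and both overlapped each other (p = 0.4). Gclm overlaps the noncoding gene Gm17494 on the other strand at its 3′ end.

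Hmox1 (chr8:75093621-75100589, plus strand), whose enzyme breaks haem down to biliverdin, iron and carbon monoxide, had 1 control library well above the other 2. Its level with RANKL alone was 6.28 and 6.52 in replicates 1 and 3 but 8.28 in replicate 2. Heat-killed MJ2 gave 8.78, 8.87 and 8.83 and surface proteins 9.01, 9.34 and 9.22. Both treated groups lay above all RANKL alone libraries, and surface proteins above heat-killed MJ2. Against RANKL alone the log2 difference was 2.16 ± 0.52 for surface proteins (adjusted p = 0.026, limma) and 1.80 ± 0.52 for heat-killed MJ2 (adjusted p = 0.10). Without RANKL alone replicate 2 these became 2.79 (adjusted p = 0.0013) and 2.43 (adjusted p = 0.0031), both past the threshold. Without any one of the other 5 libraries, the surface protein difference stayed between 1.79 and 2.25 and its adjusted p rose to between 0.053 and 0.080. Surface proteins exceeded heat-killed MJ2 by 0.36 ± 0.14 (adjusted p = 0.13).

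Iron freed by haem breakdown is stored by ferritin, whose heavy chain is Fth1. Fth1 measured 13.09, 13.42 and 13.11 with RANKL alone, 15.01, 15.66 and 15.08 with heat-killed MJ2 and 15.71, 16.27 and 15.82 with surface proteins, and the 3 groups did not overlap. It was higher by 2.72 with surface proteins (adjusted p = 6.7e-04, limma) and by 2.04 with heat-killed MJ2 (adjusted p = 0.0071). Hmox1 minus Fth1 overlapped between all groups, with means of -6.18, -6.42 and -6.74. Fth1 has pseudogene copies, and how reads shared between copies were counted is not given in the sources used here.

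Nqo1 (chr8:107388225-107403206, minus strand), the quinone reductase often used as a readout of NRF2, was at the edge of detection. Its level was 0, 3.40 and 1.57 with RANKL alone, 2.83, 2.55 and 0 with heat-killed MJ2 and 2.30, 2.76 and 2.69 with surface proteins. All groups overlapped, and no library reached 10 adjusted reads, the highest being 9.57 in RANKL alone replicate 2. A library at 0 allows up to 3 reads, so at this depth only a large difference could have been detected. Fitted without the filter on low values, its log2 difference was 0.93 ± 0.89 for surface proteins against RANKL alone (adjusted p = 0.50, limma).

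Thioredoxin reductase, encoded by Txnrd1 (chr10:82833951-82897712, plus strand), keeps thioredoxin reduced. Txnrd1 measured 9.89, 9.98 and 10.11 with RANKL alone, 10.31, 10.42 and 10.47 with heat-killed MJ2 and 10.46, 10.87 and 10.60 with surface proteins. Both treated groups lay above RANKL alone and overlapped each other. The log2 difference of surface proteins was 0.65 ± 0.16, a 1.57-fold level with an adjusted p of 0.029 in limma, which misses the 2-fold threshold. For heat-killed MJ2 it was 0.41 ± 0.13 (adjusted p = 0.14).

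Txn1, the thioredoxin that this enzyme reduces, did not pass the 2-fold threshold in any comparison. Its log2 difference was -0.68 for surface proteins against heat-killed MJ2 (adjusted p = 0.024, limma, 0.622-fold). Against RANKL alone it was -0.44 for surface proteins (adjusted p = 0.046, 0.736-fold) and 0.24 for heat-killed MJ2 (adjusted p = 0.34). Txnrd1 minus Txn1 was -2.31, -2.23 and -2.18 with RANKL alone, -2.30, -1.92 and -2.02 with heat-killed MJ2 and -1.40, -0.86 and -1.18 with surface proteins. The surface protein libraries lay above the other 6, which overlapped each other.

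Srxn1 (chr2:152105516-152111376, plus strand) encodes sulfiredoxin, which restores overoxidized peroxiredoxins. Its level was 8.93, 9.05 and 8.64 with RANKL alone, 10.24, 10.20 and 10.02 with heat-killed MJ2 and 10.35, 10.38 and 10.25 with surface proteins. Both treated groups lay above every RANKL alone library, and surface proteins just above heat-killed MJ2. The log2 difference was 1.46 ± 0.16 for surface proteins (adjusted p = 0.0021, limma), 1.28 ± 0.16 for heat-killed MJ2 (adjusted p = 0.011) and 0.17 ± 0.13 between them (95% interval -0.15 to 0.49, adjusted p = 0.39).

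Prdx1, a peroxiredoxin that sulfiredoxin repairs, was higher in both treatments and highest with heat-killed MJ2. It measured 11.93, 11.92 and 11.98 with RANKL alone, 13.58, 13.70 and 13.78 with heat-killed MJ2 and 12.91, 13.34 and 13.03 with surface proteins, 3 groups with no overlap. The log2 differences from RANKL alone were 1.74 (adjusted p = 0.0014, limma) and 1.15 (adjusted p = 0.0046), and surface proteins against heat-killed MJ2 gave -0.59 (adjusted p = 0.054). Srxn1 minus Prdx1 was -3.34, -3.50 and -3.75 with heat-killed MJ2 and -2.55, -2.97 and -2.78 with surface proteins, the first below and the second overlapping the -3.01, -2.87 and -3.34 of RANKL alone.

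**Figure D4:**
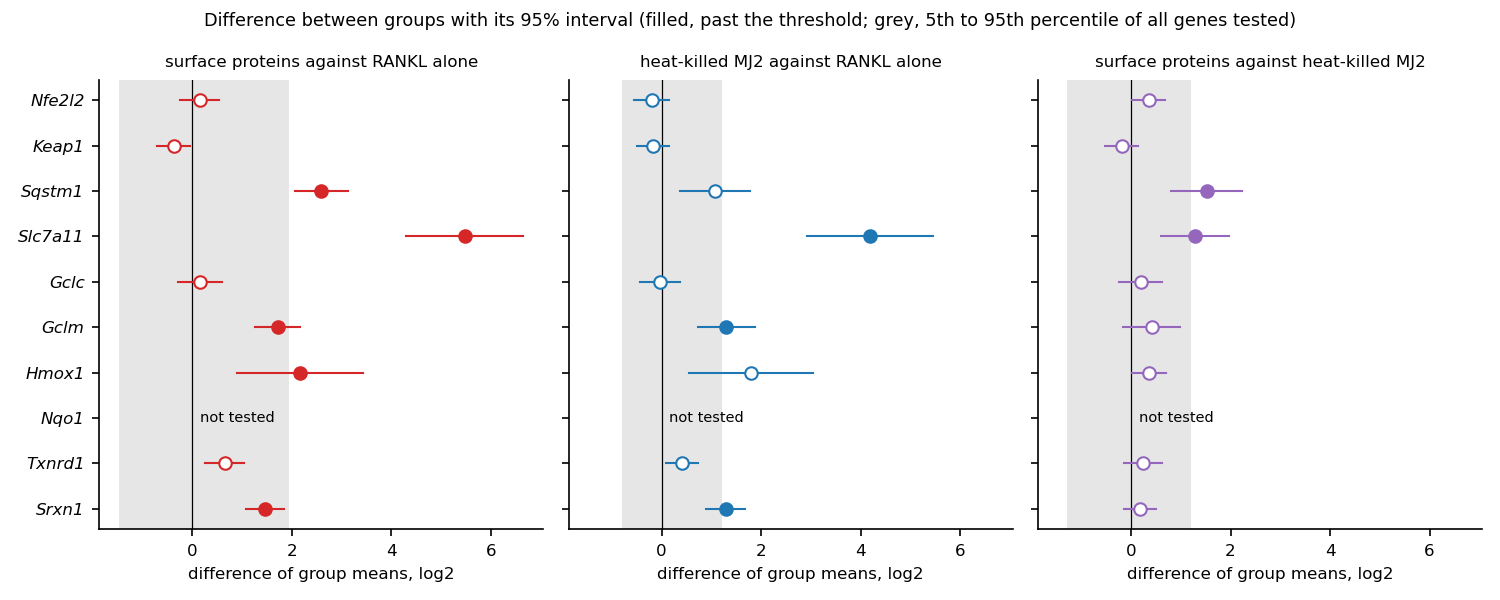
Log2 difference between group means (x axis) for each gene (y axis) in the 3 comparisons, with 95% intervals of limma, filled points past the threshold and a grey band from the 5th to the 95th percentile of all genes tested. Against RANKL alone, Slc7a11, Sqstm1 and Hmox1 lie beyond the band with surface proteins, at 5.48, 2.59 and 2.16, Nfe2l2 and Gclc lie near 0, and Nqo1 was not tested.

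For surface proteins against RANKL alone, leaving out single libraries cost the call of Hmox1 alone, as given above. Without the 3 libraries that hold fractions of a read, a choice made after seeing the data, the same 5 genes passed. In the comparisons with heat-killed MJ2, calls were lost when single libraries were left out, which also leaves fewer samples for the same test. Against RANKL alone the number past the threshold fell from 3 to 0 without heat-killed MJ2 replicate 1, to 0 without replicate 2, to 1 without replicate 3 and to 0 without the 3 fractional libraries, where 5, 4, 5 and 5 genes still had an unadjusted p under 0.05 in limma and a fold of at least 2. Slc7a11 kept log2 differences of 3.89 to 4.77 in these fits, with adjusted p between 0.050 and 0.077. Surface proteins against heat-killed MJ2 fell from 2 to 0 without heat-killed MJ2 replicate 1 or 3, without surface proteins replicate 2 or 3, and without the 3 fractional libraries, with Sqstm1 and Slc7a11 still past unadjusted p in each.

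Within a group, 1 library often held the highest level of several pathway genes. In surface proteins replicate 2 all 9 tested genes had their highest level of the group, and 7 of 9 did after scaling to equal totals, where this library was the highest for 33.9% and 30.4% of 11187 genes. In heat-killed MJ2 replicate 2 it was 6 of 9 (38% of genes), and 5 of 9 (31.7%) after the same scaling. In RANKL alone replicate 2 it was 5 of 9 with either values (34.2% and 34.9% of genes). Replicate 2 thus led in all 3 groups, and a shared batch was not tested. These counts are a description, since the genes of a library are not independent.

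Around the 10 members, 77 other genes were followed in 8 lists, of which 72 could be tested in each comparison. The lists include autophagy genes and ATF4 targets, so the totals are not of NRF2 genes alone. With surface proteins 23 were higher and 3 lower than with RANKL alone (10.2% and 7.32% of all genes), 24 in all without the 3 fractional libraries and 22 where every library had to reach 10 reads. Of the 23, 8 were of the ATF4 list, 4 of them with RANKL alone libraries under 10 reads. With heat-killed MJ2 8 were higher and none lower (3.37% and 0.897% of all genes). This fell to 3, 5 and 4 without heat-killed MJ2 replicates 1, 2 and 3, to 5 and 4 without RANKL alone replicates 1 and 3, and to 0 without the 3 fractional libraries, where 1 gene of all tested passed. Surface proteins against heat-killed MJ2 gave 13 higher and 1 lower (5.08% and 4.97% of all genes). This fell to 4 without heat-killed MJ2 replicate 1 or 3, to 5 and 7 without surface proteins replicates 2 and 3, and to 0 without the 3 fractional libraries, where no gene of all tested passed.

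Of the DNA-binding partners and regulators of NRF2, 2 of 9 tested were higher with surface proteins than with RANKL alone (10.2% of all genes), with a list median of 0.73. Nfe2l1, a related factor that controls proteasome genes, was 1.86 higher (adjusted p = 0.0011, limma) and was also 1.20 above heat-killed MJ2 (adjusted p = 0.014). Mafk, a small MAF protein, was 1.01 higher (adjusted p = 0.018). Against RANKL alone, none of the 9 passed with heat-killed MJ2, where 1 had an unadjusted p under 0.05 (22.6% of all genes).

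In the list of glutathione supply, recycling and conjugation, 4 of 12 were higher and 1 lower with surface proteins than with RANKL alone (10.2% and 7.32% of all genes), with a median of 0.45. Besides Slc3a2 these were the glutathione transferases Gsto1 (1.84 higher), Gstm1 (1.51) and Gstp1 (1.44), while Mgst2, a microsomal transferase, was 1.13 lower (adjusted p = 0.013, limma). Gstp1 and Mgst2 are named after their values were seen. Gsto1 was 1.63 higher than with heat-killed MJ2 (adjusted p = 0.022). For heat-killed MJ2 against RANKL alone 1 of the 12 passed, Slc3a2, where 3.37% of all genes were higher.

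Among thioredoxins and peroxiredoxins 3 of 11 were higher and 1 lower with surface proteins than with RANKL alone (10.2% and 7.32% of all genes), with a median of -0.15. Glutaredoxin Glrx was 1.83 higher, Prdx5 1.40 and Prdx1 as above. Txnip, which inhibits thioredoxin, was 1.80 lower (adjusted p = 0.010, limma), with levels of 10.90, 10.09 and 10.62 against 9.13, 8.17 and 8.91. With heat-killed MJ2 the same 3 were higher, Glrx by 2.84, Prdx1 by 1.74 and Prdx5 by 1.26 (3.37% of all genes), and Txnip differed by -1.08 without passing (adjusted p = 0.17). Glrx was 1.01 lower with surface proteins than with heat-killed MJ2 (adjusted p = 0.040), the 1 gene of the 72 that was lower in that comparison.

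None of the 6 NADPH-supplying enzymes passed in any comparison. At an unadjusted p under 0.05 in limma there were 1 with surface proteins against RANKL alone, 2 with heat-killed MJ2 and 1 between the treatments, where 42.3%, 22.6% and 35.3% of all genes reached it. Of 12 detoxification and superoxide enzymes 2 were higher and 1 lower with surface proteins than with RANKL alone, a share near the 17.5% of all genes that passed there. Catalase, Cat, was 1.87 higher and Esd, an esterase, 1.10 higher, and the aldose reductase Akr1b3 was 2.09 lower (adjusted p = 0.026). Cat was also 1.11 higher with heat-killed MJ2 (adjusted p = 0.024). None of the 12 passed between the treatments, where 6 had an unadjusted p under 0.05 in limma (35.3% of all genes).

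Of the 4 genes for haem breakdown and ferritin, Fth1, the light chain Ftl1 (1.16 higher) and the biliverdin reductase Blvrb (1.51) were higher with surface proteins than with RANKL alone (10.2% of all genes), with a list median of 1.33. With heat-killed MJ2 these were Fth1 and Ftl1 (1.16), where 3.37% of all genes were higher. None passed between the treatments, with 3 at an unadjusted p under 0.05 in limma (35.3% of all genes) and Fth1 at 0.68 (adjusted p = 0.10).

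Of 9 autophagy receptors and ATG8 proteins tested, 1 was higher with surface proteins than with RANKL alone, a share near the 10.2% of all genes. This was Wdfy3, a scaffold for aggregate clearance, by 2.07 (adjusted p = 0.0012, limma). The list median was 0.69, against -0.0077 for all genes. Surface proteins lay above RANKL alone without overlap for 7 of the 9 (24.7% of all genes) and below for 1 (23.7%). An unadjusted p under 0.05 in limma was reached by 6 (42.3% of all genes). None passed for heat-killed MJ2, with 1 at an unadjusted p under 0.05 (22.6% of all genes). Against heat-killed MJ2, 4 were higher with surface proteins (5.08% of all genes), Wdfy3 by 1.58, Calcoco1 by 1.38, and the ATG8 proteins Map1lc3a by 1.12 and Map1lc3b by 1.01, the last named after its values were seen.

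In the list of ATF4 targets that Slc7a11 belongs to, 5 of 9 genes reached 10 adjusted reads in all libraries of surface proteins and RANKL alone, and 4 of these 5 were higher with surface proteins (10.2% of all genes), with a median of 1.85. Atf3, Trib3, Chac1 and Sesn2 had RANKL alone libraries under 10 reads and entered the test through the treated group, so that their calls, which bring the list to 8 of 9, add no support. Trib3, a pseudokinase of the amino acid response, measured 1.90, 6.15 and 2.57 with RANKL alone, 7.09, 8.82 and 6.69 with heat-killed MJ2 and 10.59, 10.82 and 10.62 with surface proteins. Its RANKL alone replicates 1 and 3 were under 10 reads, and the 3 groups did not overlap. Ddit3, which reached 10 reads in every library, was 3.98 higher with surface proteins than with RANKL alone (adjusted p = 5.2e-04, limma). For heat-killed MJ2 against RANKL alone, 1 of the 9 passed the threshold, asparagine synthetase Asns at 1.35 (adjusted p = 0.030). Of the 5 genes with 10 adjusted reads in every library of that comparison, 1 passed, Asns again (3.37% of all genes), with a median of 1.065. Over the whole list, all 9 differences were above 0 and 7 had an unadjusted p under 0.05 in limma (22.6% of all genes). The same 4 genes low in RANKL alone, with Atf3 and Trib3 among the 7, add no support to these counts. Between the treatments 6 of 9 were higher with surface proteins (5.08% of all genes), led by Trib3 (3.15), Ddit3 (2.92) and Atf3 (2.35). Without Sesn2, which was under 10 reads in heat-killed MJ2 replicate 1, it was 5 of 8. RANKL alone replicate 2, the library with the high Hmox1, was the highest of its group for 8 of the 9 genes of this list (34.2% of all genes). Replicate 2 also led with heat-killed MJ2, for 7 of 9 (38% of all genes), and with surface proteins, for 5 of 9 (33.9%).

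**Figure D5:**
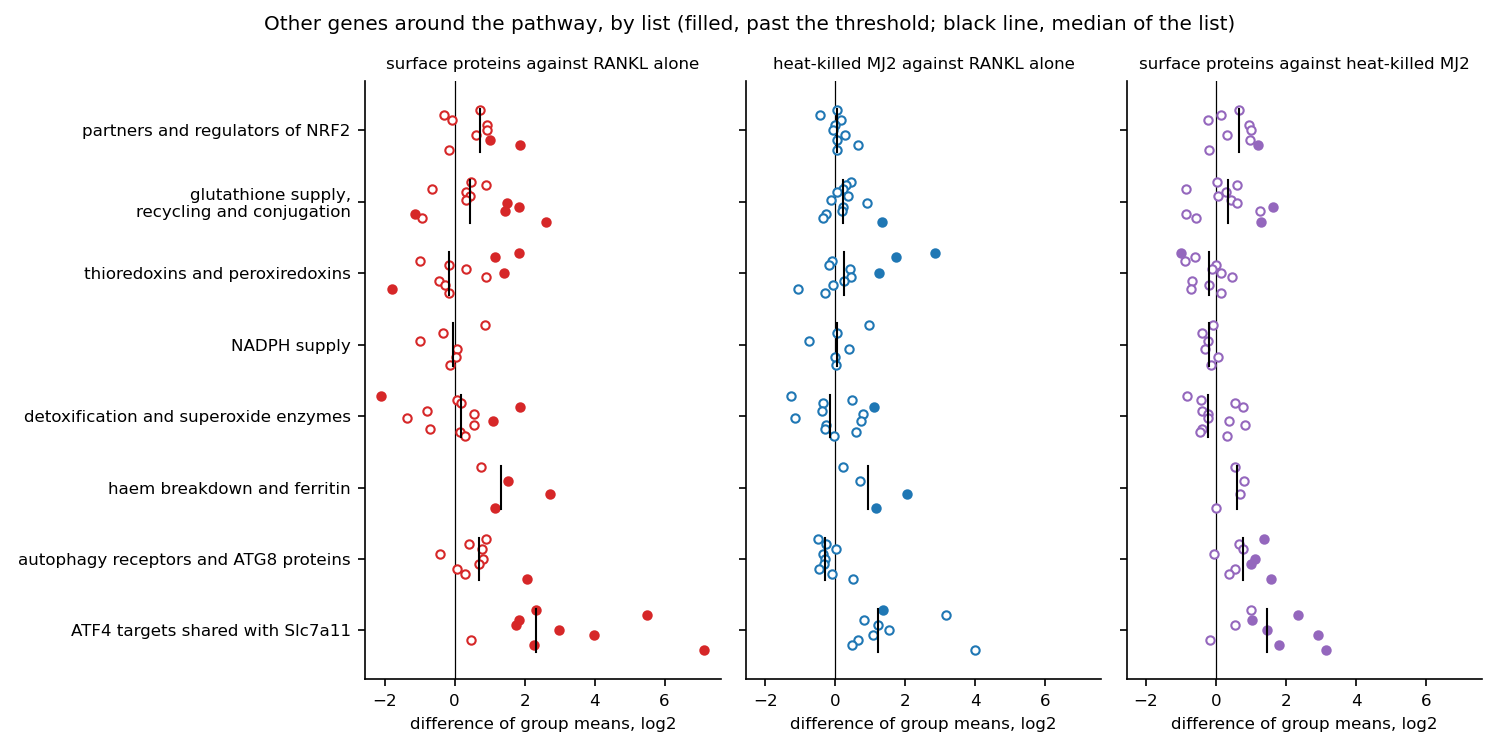
Log2 difference between group means (x axis) of the 72 tested genes around the pathway by list (y axis) in the 3 comparisons, 1 point a gene, filled where past the threshold, with a black line at the list median. The ATF4 list with surface proteins against RANKL alone has 8 filled points, 4 of them genes with RANKL alone libraries under 10 reads, and the NADPH list has no filled point in any comparison.

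The genes most like each of the 3 members with the widest range of group means were searched among 11193 genes, by the root mean square difference of log2 levels over the 9 libraries after centring each gene on its own mean. For Slc7a11 these were Irak3 (0.38), Adh7 (0.41) and Usp18 (0.46), against a spread of Slc7a11 about its own mean of 2.40. For Sqstm1 they were Htatip2 (0.19), Slc3a2 (0.20) and Tecpr1 (0.21). Hmox1 was closest to Cd300lf (0.29), Rnf183 (0.31) and Lrp12 (0.34), whose group means were alike in the 2 treatments. The 9 points share 3 groups and the depth of their libraries, and no test was made.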

How the data were processed

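Single-end 3′ mRNA-seq libraries (QuantSeq) of 9 samples were used, with groups and replicate numbers from the sample titles. The authors deposited 1 log2 value per gene row and library, log2(value + 1) by its zeros. The methods name quantile normalization, yet the sorted columns are not identical. The submitters' processing notes list mm10, Bowtie2 and bedtools, and their versions, the annotation and the handling of strand and shared reads are not given in the sources used here. Genes with at least 10 adjusted reads (2 to the value, minus 1) in at least 3 of the 6 libraries of a comparison were tested with limma 3.58.1 (lmFit, eBayes) in R 4.3.3 on the deposited values. The code was tested on simulated data. Single values were compared by exact two-sided permutation. The members, lists and tests were chosen with earlier results of these data known. All 10 members were named, of each list up to 3 genes past the threshold with the largest absolute difference per comparison, and Fth1, Prdx1 and Txnip whatever their values. Nbr1 and Txn1 fall outside this rule, and the partner genes of the within-library differences were chosen for their known roles after values had been seen. Gene positions came from GENCODE M21 on GRCm38 and promoters from RefSeq on GRCm38.p6. Python 3.11.15, pandas 2.3.3, numpy 2.4.6 and matplotlib 3.10.9 were used. Alternatives were another scaling, other filters and constants, 1 fit of all 9 libraries, the replicate number as a block, a robust fit, no limit on the fold and each library left out in turn. Floors and intervals on reads cover counting error only, since reads from PCR are not independent molecules.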

Additional observations from a re-analysis of the deposited data

How the results depend on the processing

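Over the alternatives tried, 393 of 432 log2 differences of the 9 members kept their direction and their side of the threshold. The number of members past the threshold for surface proteins against RANKL alone stayed between 4 and 6, and between 4 and 5 with single libraries left out, Hmox1 being the gene lost. Hmox1 also lost its call without the filter on low values (adjusted p = 0.063, limma). For heat-killed MJ2 against RANKL alone the number ranged from 0 to 3 with single libraries left out and was 0 without the 3 libraries that hold fractions of a read, against 2 to 4 under the other alternatives. Hmox1 passed in the fit over all 9 libraries (adjusted p = 0.048). For surface proteins against heat-killed MJ2 it ranged from 0 to 2 with single libraries left out, and was 0 without the filter on low values (2 at unadjusted p), 1 in the fit over all 9 libraries and 0 without the fractional libraries. The log2 difference of Gclc for heat-killed MJ2 against RANKL alone was -0.0307 and ranged from -0.135 to 0.0662 with single libraries left out, above 0 without RANKL alone replicate 1 (0.0662) and without heat-killed MJ2 replicate 1 (0.0522). Leaving out a library leaves fewer samples for the same test. All genes past the threshold for heat-killed MJ2 against RANKL alone fell from 461 to 81, 155 and 116 without its 3 libraries in turn, to 300 without RANKL alone replicate 3, to 267 without the filter and to 289 with the replicate block. For surface proteins against heat-killed MJ2 they fell from 1098 to 362 and 415 without heat-killed MJ2 replicates 1 and 3, and to 591 and 672 without surface proteins replicates 2 and 3. Without the fractional libraries 1218 of 1901 remained in number for surface proteins against RANKL alone. Deviations of libraries with the same replicate number correlated at 0.03 to 0.13, positive in 9 of 9 pairs against 4 of 18 with different numbers, and best with their own number in 16 of 18 cases. Within a group the deviations sum to 0, so positive values at the same number push those at different numbers below 0 on balance. The 3 comparisons also share libraries, so these counts are not independent. No label ties the replicate numbers to a batch, the samples were not treated as paired, and a shared batch was not tested. With the replicate number as a block the members past the threshold were 5, 2 and 2 in the 3 comparisons, Gclm being lost for heat-killed MJ2 (adjusted p = 0.10, limma). Groups of 3 libraries were too small for a test of single outlying libraries.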
